A study of Homo sapiens with 6 samples.

Results

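The short arm of human chromosome 8 carries a stretch of genes, from band 8p21 into 8p12, whose RNA levels were mostly lower in PANC-1 pancreatic cancer cells given a lentivirus that knocks down SHMT2 than in cells given a null control virus. The stretch was defined as the genes of chromosome 8 with a start site from 22367278 to 30600000, an interval of 8.23 megabases, leaving out names that begin with ADAM, DUSP, FZD, KIF, SLC, TRIM or ZNF. This gave 57 of the 20036 genes in the deposited table, and a further 10 genes of the interval were left out by name. The stretch was chosen because its genes fall together in these libraries, so the values below describe it, and no test of the change between the viruses is offered as support for it. All 57 genes are annotated as protein coding in GENCODE 29, with 28 on the plus and 29 on the minus strand.

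The groups were 3 libraries of PANC-1 cells with SHMT2 knockdown lentivirus and 3 libraries of PANC-1 cells with null control virus. PANC-1 is an established human line from a pancreatic duct carcinoma, and no other genotype, treatment or time is given for either group. The labels state neither the hairpin sequence nor whether the infected cells were pooled or cloned, nor whether each replicate came from its own culture, so every p-value rests on a spread between libraries that may be technical. SHMT2 encodes the mitochondrial enzyme that converts serine to glycine and hands a one-carbon unit to folate.

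The genes of this part of chromosome 8 do not form one pathway. They include the cluster of receptors for TRAIL, a death ligand of the tumour necrosis factor family, together with a secreted chaperone, scavenger receptors, regulators of mitosis, and single subunits of several complexes that assemble from genes on many chromosomes. Carcinomas often carry fewer DNA copies of the short arm of chromosome 8. DNA copy number was not measured in these libraries, and its part in the values below was not tested.

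SHMT2 itself stood at 6.91, 3.42 and 5.23 CPM (read counts scaled to library size with the trimmed mean of M values, TMM) in knockdown replicates 1, 2 and 3, against 133, 153 and 153 CPM in control replicates 1, 2 and 3. On the log2 scale this was a change of -4.8 (SE 0.23; edgeR, Benjamini-Hochberg adjusted p = 1.04e-05), and no knockdown library reached the control range. Library totals ran from 15405884 to 19075734 counts. Knockdown replicate 2 and control replicate 1 are known from earlier results to stand apart from the other libraries of their groups, and the share of counts from the mitochondrial genome was 10.42% in knockdown replicate 2, 4.72% in each of the remaining knockdown libraries and 5.78% to 6.86% in controls. Of the epithelial and pancreatic duct markers, KRT8 averaged 1410 ± 90.8 CPM in knockdown and 947 ± 101 CPM in control libraries (SD, n = 3 each), while CFTR had no count in any library. The duct keratin KRT19 stood at 69.8 ± 12.9 CPM in knockdown and 0.152 ± 0.137 CPM in control libraries (SD, n = 3 each), so this defining marker was nearly absent from the controls. Of the 8 tested epithelial and duct markers, 4 were called higher and 2 lower in edgeR, the 2 being EPCAM at -1.38 (adjusted p = 0.000172) and SOX9 at -0.39 (adjusted p = 0.03). Of 4 mesenchymal markers, VIM was called lower at -0.82, ZEB1 and CDH2 were called higher at 0.96 and 0.60, and FN1 was not called. The 4 mesenchymal markers summed to 1420 to 1500 CPM in knockdown and 2090 to 2670 CPM in control libraries, most of it VIM. Most of the epithelial sum given next came from KRT8 and from KRT18, which was not called. The summed level of the 10 epithelial markers ran from 1990 to 2420 CPM in knockdown and from 1430 to 1770 CPM in control libraries. That of 5 immune markers ran from 0 to 0.55 CPM in knockdown and from 0 to 0.19 CPM in control libraries, and that of 6 acinar and endocrine markers from 0 to 0.0994 CPM in knockdown and from 0 to 0.38 CPM in control libraries. The 4 endothelial markers summed to 5.81 to 7.25 CPM in knockdown and 0.441 to 0.601 CPM in control libraries, nearly all of it KDR, and the 5 fibroblast markers to 42.1 to 47.5 CPM in knockdown and 78.2 to 92.2 CPM in control libraries, nearly all of it COL1A1. The part of these differences in the values of the stretch was not tested.

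Of the 57 members, 42 passed the filter on low counts and were tested, and 15 did not. In the fit over all genes, 35 of the 42 were called lower in knockdown cells at an adjusted p below 0.05, 1 was called higher and 6 were not called. Over the 12292 tested genes 51.8% were called, 25.1% lower and 26.7% higher. Because the stretch was picked from this contrast, nothing is read from the difference between these counts. The median log2 fold change was -0.97 over the 42 tested members, a level 0.511 of the control, beside 0.00 over all tested genes. The quartiles were -1.47 and -0.61, and the members ranged from -3.22 for SCARA3 to 2.14 for RBPMS. A log2 fold change of -1 or less was found in 20 of the 42, or 47.6%, beside 5.96% of all tested genes. In bulk RNA, fewer cells with a transcript and less of it per cell cannot be told apart.

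**Figure D1:**
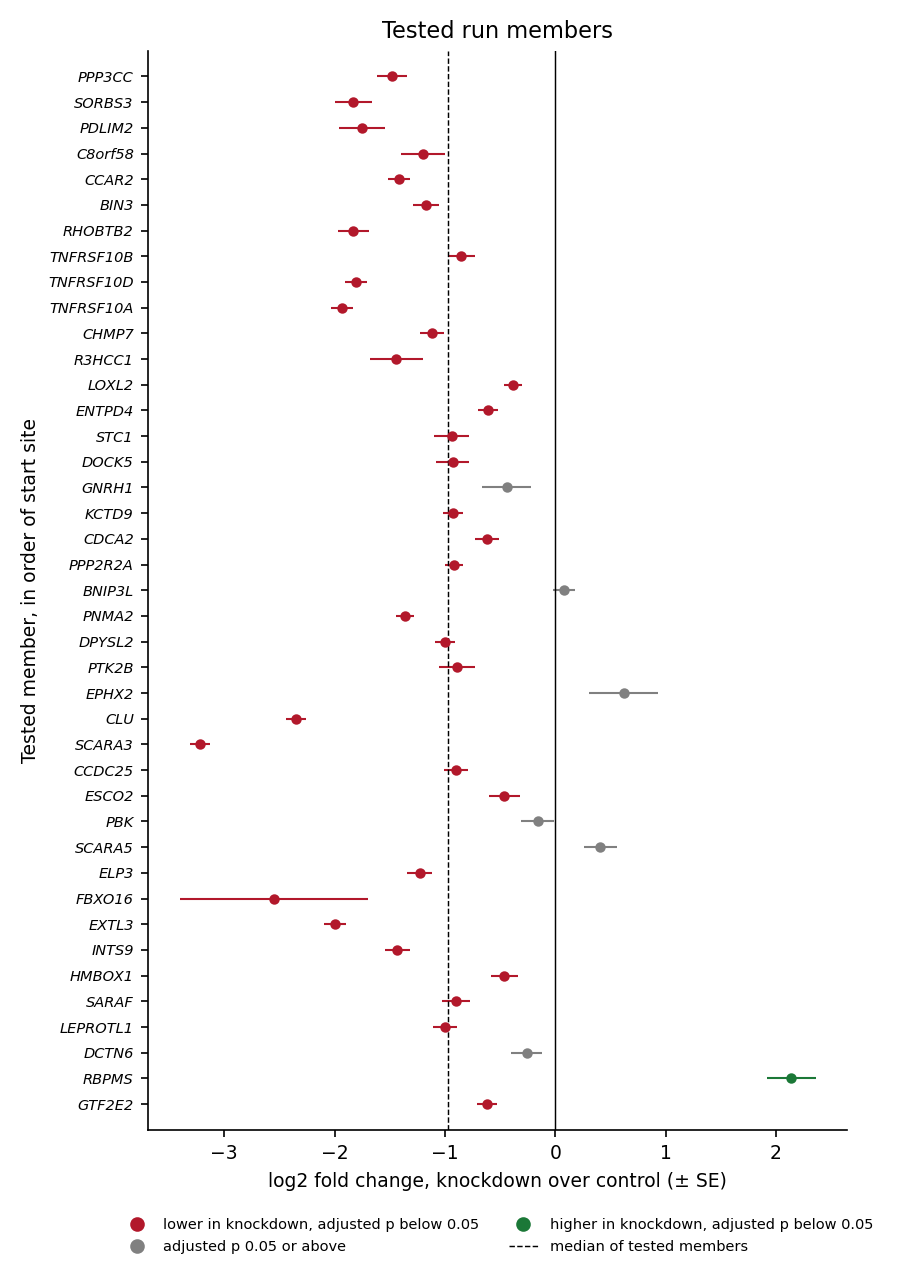
Log2 fold change, knockdown over control, for the tested members but 1 in order of start site from top to bottom, with bars for the standard error of the edgeR fit and colours for its calls. The dashed line is the median of -0.97, and 21 of the 42 tested members lie within 0.5 of it, with SCARA3, FBXO16 and CLU farthest to the left and RBPMS alone far to the right.

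Knockdown and control values were fully apart in 39 of the 42 tested members. Of these, 37 had every knockdown library below every control library, beside 30.2% of all tested genes, and 2 had every knockdown library above, beside 31.3%. The 2 were RBPMS and SCARA5, and the 3 members whose groups overlapped were BNIP3L, EPHX2 and PBK. The shift was of like size in each knockdown library. The median over members of the log2 ratio to the control mean, on the log2(CPM + 0.5) scale, was -0.98, -1.0 and -1.02 in knockdown replicates 1, 2 and 3, and 38 of the 42 lay below 0 in each. Summed over all members, the knockdown libraries held 1580, 1590 and 1580 CPM, against 3760, 3810 and 3800 CPM in the control libraries, which left 41.8% of the control mean. CLU alone made up 14% to 14.7% of that sum in knockdown libraries and 28.5% to 32.1% in control libraries, and without it 51.7% of the control mean was left.

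Within a group the members did not shift together from library to library, a measure that the choice of the stretch did not use. Each library was set against the mean of the other two of its group. The median log2 ratio over the 42 members was 0.02, -0.01 and -0.01 in knockdown replicates 1, 2 and 3, and 0.01, 0.01 and 0.00 in control replicates 1, 2 and 3. Over all tested genes the same medians ran from -0.02 to 0.01. Differences between libraries of a group may be technical only, so nothing is read from the lack of a joint shift.

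**Figure D2:**
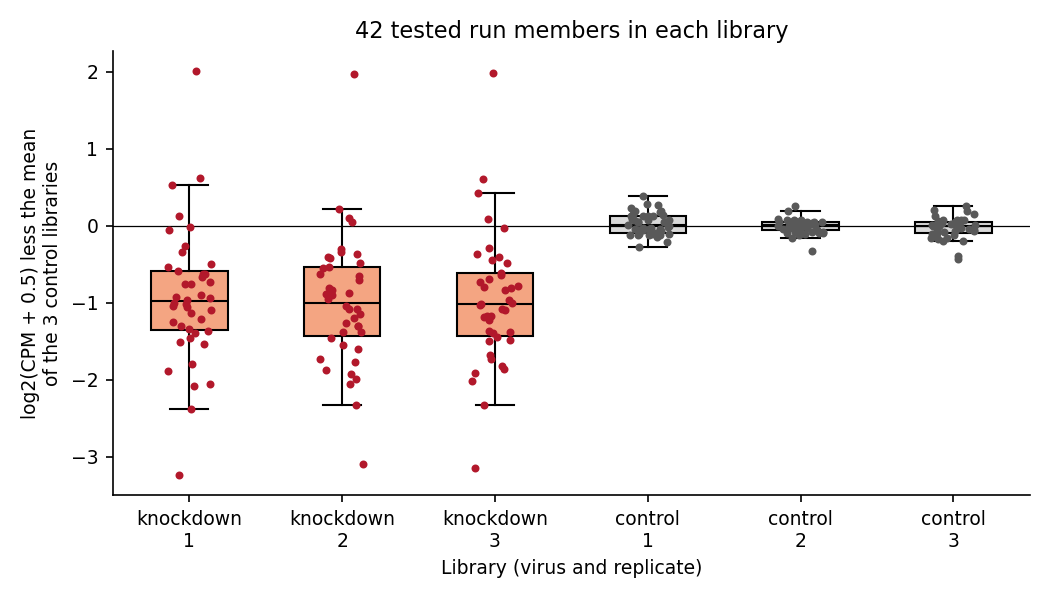
Log2(CPM + 0.5) of the 42 tested members in each library, less the mean of the 3 control libraries of the same gene, so that control values centre on 0 by construction. Each point is a gene, boxes give the median and quartiles and whiskers reach to 1.5 box lengths. The boxes of the 3 knockdown libraries sit at medians of -0.98, -1.0 and -1.02.

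The lower values did not stop at the edges of the interval. The 3 tested genes just before it were BMP1, POLR3D and PIWIL2, at log2 fold changes of -1.37, -1.36 and -0.78, and the first 3 tested members were PPP3CC, SORBS3 and PDLIM2, at -1.48, -1.83 and -1.75. The last 3 tested members were DCTN6, RBPMS and GTF2E2, at -0.26, 2.14 and -0.62, and the 3 tested genes just after were GSR, UBXN8 and PPP2CB, at -1.05, -1.88 and -1.16. The protease gene BMP1 stood at 8.1, 9.22 and 12.1 CPM in knockdown and 27.5, 24.7 and 24 CPM in control libraries, and the RNA polymerase III subunit gene POLR3D at 15.3, 16.6 and 15.4 CPM in knockdown and 38.1, 42.5 and 40.8 CPM in control libraries. PIWIL2, a germline gene of the Argonaute family, stood at 1.29, 0.489 and 1.19 CPM in knockdown and 2.27, 1.6 and 1.33 CPM in control libraries. It was not called (SE 0.38, edgeR adjusted p = 0.118). All 3 genes were lower in every knockdown library than in any control library, as were 30.2% of all tested genes. Past the other edge, glutathione reductase GSR stood at 61.3, 63.2 and 59.4 CPM in knockdown and 110, 137 and 134 CPM in control libraries, and UBXN8 at 5.07, 5.31 and 6.37 CPM in knockdown and 21.1, 22.6 and 18.2 CPM in control libraries. PPP2CB, a catalytic subunit of the phosphatase PP2A, stood at 66, 52.5 and 72.3 CPM in knockdown and 117, 151 and 160 CPM in control libraries. These groups did not overlap either.

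Seen along the whole chromosome, the stretch is the middle of a longer one, whose ends were placed after the values were seen. From INTS10 (start 19817391) to FGFR1 (start 38400215), 80 of 84 tested genes had a log2 fold change below 0, beside 49.8% of all tested genes. The median over the 84 was -1.04. The 4 above 0 were BNIP3L, EPHX2, SCARA5 and RBPMS. Before the interval all 11 tested genes of this longer stretch were below 0 (median -1.14), and after it all 24 were (median -1.04). The next 5 tested genes, TACC1 to ADAM32, had a median of 0.33 with 4 above 0. On the near side the 5 tested genes from ASAH1 to CSGALNACT1 had a median of -0.44 with 4 below 0.

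Successive blocks of 20 tested genes gave the same picture. The block from ATP6V1B2 to TNFRSF10D had a median of -1.37 with 20 of 20 below 0, and that from UBXN8 to PLPP5 had -1.03 with 20 of 20. The blocks between them, TNFRSF10A to CLU and SCARA3 to GSR, had medians of -0.93 and -0.94 with 18 below 0 in each. The first block of the short arm, ZNF596 to MTMR9, had a median of 0.06, and NSD3 to SLC20A2 had 0.07. On the long arm 271 tested genes had a median of 0.17, and its block of greatest median was YTHDF3 to RPL7 at 0.89. The 7 tested genes of the interval that were left out by name had a median of -1.22, and none of the 7 groups overlapped. The zinc transporter SLC39A14 stood at 87.1 ± 14 CPM in knockdown and 283 ± 19.5 CPM in control libraries, and the mitochondrial iron importer SLC25A37 at 98.4 ± 3.63 CPM in knockdown and 244 ± 5.68 CPM in control libraries (SD, n = 3 each).

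**Figure D3:**
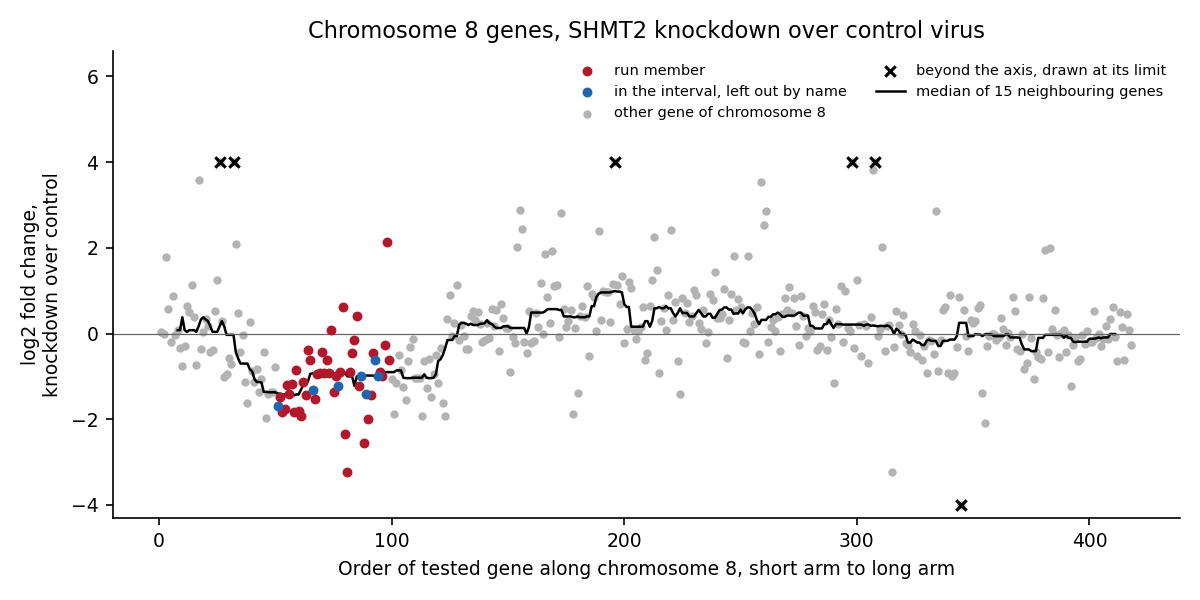
Log2 fold change, knockdown over control, for the tested genes of chromosome 8 in positional order, with members in red, genes of the interval left out by name in blue and the median of 15 neighbouring genes as a line. Crosses mark values beyond the axis. The line stays near -1 across the members and on both sides of them, and is back at about 0 before the end of the short arm.

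The interval holds the TRAIL receptor cluster. TNFRSF10A and TNFRSF10B encode the death receptors DR4 and DR5, TNFRSF10D encodes a decoy receptor with a truncated death domain, and TNFRSF10C encodes a decoy tethered to the membrane by a lipid anchor. TNFRSF10A (23190452 to 23225102, minus strand) stood at 13.5, 14.6 and 12.3 CPM in knockdown libraries, against 49.8, 49.8 and 54 CPM in control libraries, a log2 fold change of -1.93 (SE 0.10). TNFRSF10D stood at 22.9, 21 and 25 CPM in knockdown and 76.9, 86.3 and 79.4 CPM in control libraries (-1.81, SE 0.10). The smallest difference of the cluster was that of TNFRSF10B, with 85.4, 68.2 and 86.8 CPM in knockdown and 133, 152 and 148 CPM in control libraries (-0.85, SE 0.12). None of the 3 receptors overlapped between groups. TNFRSF10C had 3 counts over the knockdown and 1 over the control libraries and was not tested. Per gene length, in the authors' FPKM, a level scaled to gene length and sequencing depth, TNFRSF10B was the highest of the cluster with a mean of 16.5 FPKM in knockdown and 28 FPKM in control libraries. TNFRSF10D followed at 6.7 FPKM in knockdown and 22.2 FPKM in control libraries, and TNFRSF10A at 4.72 FPKM in knockdown and 17 FPKM in control libraries.

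Genes of the same pathway that lie elsewhere, which the choice of the stretch did not use, were called higher or were not called in the fit over all 6 libraries. Their list was drawn up with earlier results of these data known. Of 13 listed genes, 12 were tested, 5 were called higher and 0 lower (adjusted p below 0.05, edgeR, 26.7% and 25.1% over all tested genes). Among the 5, TNFSF10 and TNFRSF11B passed the filter on low counts only through the knockdown libraries. A higher call was nearly fixed for those genes, and nothing is read from the count of 5. At an unadjusted p below 0.05 there was 1 lower gene, FADD, and DESeq2 called 0 lower. The ligand TNFSF10 had 76, 62 and 70 counts in knockdown and 4, 2 and 0 counts in control libraries, a ratio of 29 between summed levels (95% exact counting interval 13.1 to 79.9). XIAP, which inhibits caspases, rose to 274, 254 and 266 CPM in knockdown libraries, against 84.6, 96.7 and 100 CPM in control libraries (1.5, SE 0.09, edgeR adjusted p = 3.05e-05). CFLAR, the FLIP inhibitor of caspase 8, rose to 49.4, 47.6 and 48.8 CPM, against 29.8, 33.7 and 32.9 CPM in control libraries (0.60, SE 0.09, edgeR adjusted p = 0.00131). The soluble TRAIL decoy TNFRSF11B, on the long arm of chromosome 8, had 55, 47 and 51 counts in knockdown libraries and 0, 0 and 1 in control libraries, a ratio of 128 with a 95% exact counting interval from 22.6 to 5090. BID, which links caspase 8 to mitochondria, was the other gene called higher (0.46, SE 0.10, edgeR adjusted p = 0.00669).

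The adaptor FADD and the initiator CASP8 were not called. FADD stood at 6.36, 5.56 and 7.3 CPM in knockdown and 7.81, 7.95 and 9.49 CPM in control libraries (edgeR adjusted p = 0.0713). CASP8 stood at 55.3, 61.7 and 49.9 CPM in knockdown and 61, 57.2 and 60.4 CPM in control libraries (edgeR adjusted p = 0.448). With control replicate 1 and knockdown replicate 2 both left out, 8 genes of the list were called higher and 2 lower, where 36.9% of all tested genes were called higher and 36.7% lower.

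**Figure D4:**
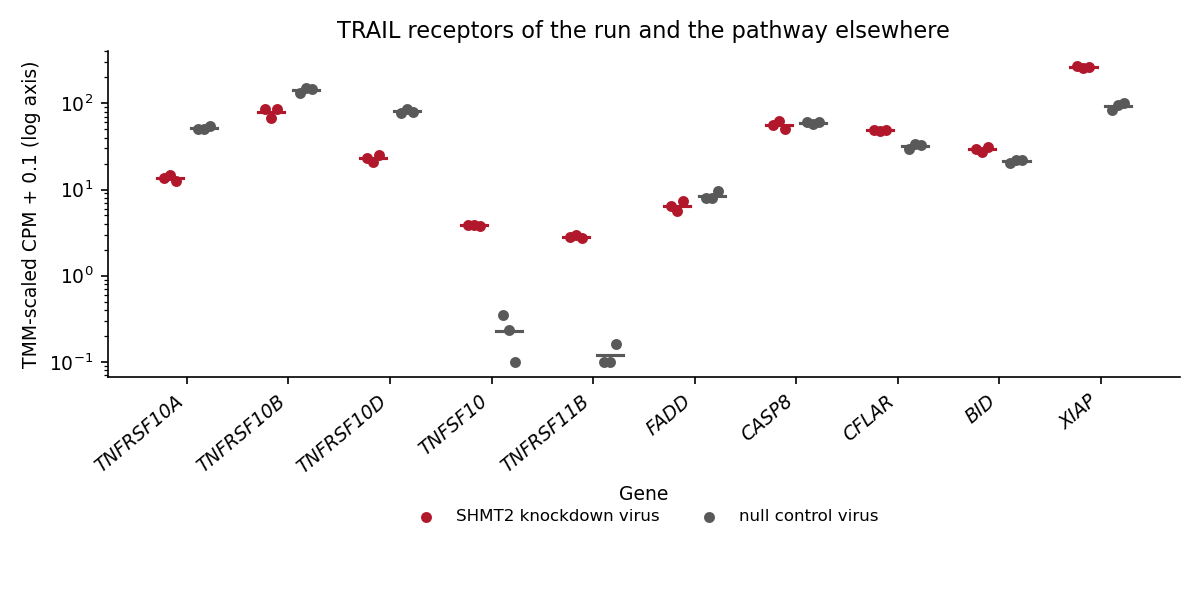
TMM-scaled CPM plus 0.1, on a log axis, for the 3 tested TRAIL receptors of the stretch and 7 genes of the pathway elsewhere. Points are libraries, knockdown in red to the left of control in grey, and lines are group means. The 3 receptors are lower in knockdown libraries, while TNFSF10, TNFRSF11B, CFLAR, BID and XIAP are higher.

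A mixed group of members held secreted, matrix and scavenger genes together with the enzyme genes EXTL3, ENTPD4 and EPHX2. Of its 8 tested genes, 6 were called lower, beside 25.1% of all tested genes, and 2 were not called. Log2 fold changes ran from -3.22 for SCARA3 to 0.62 for EPHX2. CLU (27596917 to 27614700, minus strand) encodes clusterin, a secreted chaperone, and was the most abundant member in control libraries, with a mean of 37.4 FPKM in knockdown and 180 FPKM in control libraries. Its level was 222, 231 and 232 CPM in knockdown and 1070, 1200 and 1220 CPM in control libraries, a log2 fold change of -2.35 (SE 0.09). Its neighbour SCARA3 (27633868 to 27676776, plus strand), a class A scavenger receptor family member, stood at 10.4, 11.5 and 11.1 CPM in knockdown and 106, 102 and 99.2 CPM in control libraries (-3.22, SE 0.09). That left 10.7% of the control mean, the least of any member with at least 10 CPM in controls. EXTL3, a glycosyltransferase of heparan sulphate synthesis, stood at 27, 27.4 and 32.2 CPM in knockdown and 111, 117 and 118 CPM in control libraries (-2.0, SE 0.10). In all 3 of these genes the groups lay far apart, and the libraries of each group lay close together.

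The others of this group differed less. The secreted hormone gene STC1 stood at 26.5, 31.9 and 24.1 CPM in knockdown and 63.7, 48.7 and 45.6 CPM in control libraries (-0.94, SE 0.16), with control replicate 1 the highest. The Golgi nucleotidase gene ENTPD4 stood at 51.6, 54.5 and 51 CPM in knockdown and 86.7, 79.2 and 73.3 CPM in control libraries (-0.61, SE 0.09). LOXL2, whose enzyme cross-links collagen, stood at 79.8, 76.6 and 78.5 CPM in knockdown and 94.7, 104 and 106 CPM in control libraries (-0.38, SE 0.08). Groups did not overlap in these genes, and LOXL2 and ENTPD4 share 2.1% and 1.7% of their exon bases with each other on the same strand.

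SCARA5, a ferritin receptor of the scavenger family, stood at 11.5, 9.1 and 10.6 CPM in knockdown and 7.62, 8.95 and 6.9 CPM in control libraries (0.41, SE 0.15). Every knockdown library was above every control library, yet edgeR did not call the gene (adjusted p = 0.0545). It was called higher by DESeq2, with library totals alone, in both limma fits on FPKM and without knockdown replicate 2. EPHX2, the soluble epoxide hydrolase, stood at 1.89, 1.16 and 1.86 CPM in knockdown and 1.2, 0.735 and 1.27 CPM in control libraries (0.62, SE 0.31), with overlap of knockdown replicate 2 and the controls. With control replicate 1 and knockdown replicate 2 both left out, SCARA5, EPHX2 and BNIP3L joined RBPMS among the members called higher, at log2 fold changes of 0.49, 0.90, 0.20 and 2.42, where 36.9% of all tested genes were called higher.

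Of the 5 genes of mitosis and chromosomes, 4 were called lower, beside 25.1% of all tested genes, and 1 was not called. Their median log2 fold change was -0.62. CCAR2, which encodes the SIRT1 inhibitor DBC1, stood at 30.4, 25.5 and 29.1 CPM in knockdown and 70.4, 78.6 and 78.8 CPM in control libraries (-1.42, SE 0.10). CHMP7, which brings ESCRT-III to the reforming nuclear envelope, stood at 28.3, 33.8 and 28.8 CPM in knockdown and 61.3, 68.3 and 68.4 CPM in control libraries (-1.12, SE 0.11). CDCA2, or Repo-Man, which targets a phosphatase to chromatin at mitotic exit, stood at 50.6, 49.1 and 49.7 CPM in knockdown and 86.9, 74.4 and 67.6 CPM in control libraries (-0.62, SE 0.11). The knockdown libraries were lower throughout in all 3.

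The smaller differences were those of ESCO2 and PBK. ESCO2 acetylates cohesin in S phase and stood at 24.1, 26.8 and 24.3 CPM in knockdown and 41.2, 31.3 and 30.6 CPM in control libraries (-0.46, SE 0.14), where control replicate 1 was the highest. Its call was lost without knockdown replicate 1 or 3, with library totals alone and in both limma fits on FPKM. PBK, a mitotic kinase also known as TOPK, stood at 109, 78.3 and 108 CPM in knockdown and 122, 107 and 101 CPM in control libraries (-0.16, SE 0.15). Its groups overlapped, with knockdown replicate 2 the lowest library, and without that library and control replicate 1 its log2 fold change was 0.07.

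Of 7 tested transcription and RNA genes, 6 were called lower and 1 higher, beside 25.1% and 26.7% of all tested genes. ELP3, the catalytic subunit of the Elongator complex that modifies transfer RNA, stood at 23.3, 29.7 and 26.2 CPM in knockdown and 59.9, 63.3 and 61.9 CPM in control libraries (-1.23, SE 0.11). INTS9, of the endonuclease module of the Integrator complex, stood at 8.7, 8.61 and 8.54 CPM in knockdown and 21.5, 23.6 and 24.4 CPM in control libraries (-1.43, SE 0.11). GTF2E2, the beta subunit of the general factor TFIIE, stood at 33.2, 35.4 and 31.5 CPM in knockdown and 50.7, 51.2 and 51.9 CPM in control libraries (-0.62, SE 0.09). No group of these 3 genes overlapped.

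R3HCC1, named for its R3H domain, stood at 8.05, 4.21 and 7.77 CPM in knockdown and 15.7, 18.9 and 20.2 CPM in control libraries (-1.44, SE 0.24), with knockdown replicate 2 the lowest. HMBOX1, a telomere-binding homeobox protein gene, stood at 9.49, 10.7 and 10.4 CPM in knockdown and 15.3, 13.4 and 13.2 CPM in control libraries (-0.46, SE 0.12), and its call was lost without knockdown replicate 1. The exception was RBPMS (30384511 to 30572256, plus strand), an RNA-binding protein gene, with 11.9, 11.6 and 11.7 CPM in knockdown and 3.53, 2.67 and 1.77 CPM in control libraries (2.14, SE 0.22). All 3 knockdown libraries were above the controls, and the tested genes on either side of it, DCTN6 and GTF2E2, were below 0.

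All 3 genes grouped as phosphatases and kinases were called lower, beside 25.1% of all tested genes. The kinase gene PBK, described above with mitosis, was not called. PPP3CC, a catalytic subunit of the calcium-dependent phosphatase calcineurin, stood at 6.31, 7.27 and 6.21 CPM in knockdown and 16.8, 17 and 21.1 CPM in control libraries (-1.48, SE 0.14). PPP2R2A, a regulatory B subunit of PP2A, stood at 86, 87 and 81.9 CPM in knockdown and 166, 155 and 160 CPM in control libraries (-0.92, SE 0.08). PTK2B, the focal adhesion kinase relative PYK2, had a log2 fold change of -0.89 at 2.34 ± 0.0878 CPM in knockdown and 4.36 ± 0.248 CPM in control libraries (SD, n = 3 each). Groups did not overlap in any of these 3 genes.

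Cytoskeletal and small GTPase genes were called lower in 6 of 7 tested members, beside 25.1% of all tested genes. Their median log2 fold change was -1.17. SORBS3, which encodes the focal adhesion adaptor vinexin, stood at 9.24, 14.3 and 10.3 CPM in knockdown and 42.2, 37.4 and 40.4 CPM in control libraries (-1.83, SE 0.17). RHOBTB2, an atypical GTPase gene, stood at 6.71, 5.19 and 5.23 CPM in knockdown and 21.5, 20.8 and 18.8 CPM in control libraries (-1.83, SE 0.14). PDLIM2, a PDZ and LIM domain protein gene, stood at 1.24, 0.855 and 1.09 CPM in knockdown and 3.78, 3.41 and 3.67 CPM in control libraries (-1.75, SE 0.21). These 3 lie near the start of the interval and had close log2 fold changes. BIN3, a BAR domain protein gene, stood at 8.0, 7.02 and 7.15 CPM in knockdown and 16.4, 17.4 and 16.3 CPM in control libraries (-1.17, SE 0.12). It shares 21.6% of its exon bases with CCAR2 on the other strand, and the strand setting of the counting is not given, so reads of the pair may not have been told apart.

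DOCK5, an activator of the GTPase Rac, stood at 114, 149 and 111 CPM in knockdown and 270, 234 and 206 CPM in control libraries (-0.93, SE 0.15). DPYSL2, or CRMP2, which binds microtubule subunits, stood at 112, 129 and 119 CPM in knockdown and 255, 235 and 231 CPM in control libraries (-1.0, SE 0.09). Both were lower in every knockdown library. DCTN6, a subunit of the dynein cofactor dynactin, stood at 9.94, 7.64 and 8.44 CPM in knockdown and 9.95, 10.4 and 10.8 CPM in control libraries (-0.26, SE 0.14). It was not called, knockdown replicate 1 lay just under the lowest control, and it shares 12.8% of its exon bases with LEPROTL1 on the same strand.

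Among genes of mitochondria, calcium and trafficking, SARAF, which limits store-operated calcium entry, stood at 47.5, 36 and 45.8 CPM in knockdown and 72.3, 81.4 and 87.6 CPM in control libraries (-0.90, SE 0.13). LEPROTL1 stood at 32.5, 31.8 and 37.8 CPM in knockdown and 62.2, 69.9 and 71.9 CPM in control libraries (-1.0, SE 0.11). Both had groups that did not overlap. BNIP3L, or NIX, a mitophagy receptor, stood at 85.7, 80.5 and 82.7 CPM in knockdown and 88.1, 72.2 and 74.7 CPM in control libraries (0.08, SE 0.10), and its groups overlapped. It lies between PPP2R2A and PNMA2, both lower, and shares 7.7% of its exon bases with PNMA2 on the other strand.

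The other members called lower included PNMA2, a paraneoplastic antigen gene, with 77.3, 79 and 71.9 CPM in knockdown and 191, 197 and 200 CPM in control libraries (-1.36, SE 0.08). KCTD9, a substrate adaptor of cullin 3 ligases, stood at 57, 60.8 and 54.1 CPM in knockdown and 115, 103 and 109 CPM in control libraries (-0.93, SE 0.09). CCDC25 stood at 21.4, 23.2 and 24.8 CPM in knockdown and 47.1, 41 and 41.7 CPM in control libraries (-0.90, SE 0.11). None of these groups overlapped. FBXO16, an F-box gene, had 11, 0 and 0 counts in knockdown and 21, 22 and 12 in control libraries, a ratio of 0.167 with a 95% exact counting interval from 0.0789 to 0.323. That interval leaves out the spread between the knockdown libraries, and edgeR gave -2.55 (SE 0.85, adjusted p = 0.0371). The gene passed the filter on low counts only through the control libraries, so nothing is read from its lower call. It shares 51.2% of its exon bases with ZNF395 on the same strand, and it was no longer called when control replicate 1, control replicate 2, knockdown replicate 2 or knockdown replicate 3 was left out. C8orf58 had a log2 fold change of -1.2, with 22.0% of its exon bases shared on the same strand. GNRH1, the gonadotropin-releasing hormone gene, was at 1.54 ± 0.127 CPM in knockdown and 2.09 ± 0.375 CPM in control libraries (SD, n = 3 each) with no call.

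The 15 members that were not tested were silent or nearly so. There was no count in any library for 8 of them: PEBP4, NKX2-6, NEFL, EBF2, ADRA1A, PNOC and both genes without a symbol. EGR3, an immediate early transcription factor, had 13 counts over the knockdown and 18 over the control libraries. The remaining 6, TNFRSF10C, NEFM, STMN4, CHRNA2, NUGGC and MBOAT4, had 0 to 4 counts over the knockdown and 0 or 1 over the control libraries.

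Partner genes, encoded elsewhere, were subunits and regulators that work with members, or paralogs of members. The choice of the stretch did not use them, but their list was drawn up with earlier results of these data known. Of 68 such genes, 66 were tested, 17 were called lower and 16 higher, with a median log2 fold change of 0.03 (edgeR; 25.1% and 26.7% over all tested genes). These counts depended on single libraries, with 11 lower and 10 higher without control replicate 2, and 11 lower without control replicate 3. With control replicate 1 and knockdown replicate 2 both left out there were 23 lower and 27 higher, where 36.7% of all tested genes were called lower and 36.9% higher. The near-even split of partner genes also moved with the scaling, with 12 lower and 20 higher with library totals alone. By limma on FPKM with either pseudocount there were 12 lower and 21 higher. Under these settings the median over all tested genes also lay above 0, at 0.09 with library totals. It was 0.08 on log2(FPKM + 0.1) and 0.05 on log2(FPKM + 1), so nothing is read from the tilt. One of the 66, INTS10, lies in the longer stretch of chromosome 8 described above, and 3 others, INTS8, CHMP4C and RAD21, lie on its long arm.

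For Elongator, where the member ELP3 was at -1.23, the other subunits were called lower in 2 and higher in 1 of 5, from -1.0 for ELP6 to 0.53 for ELP4. For Integrator, where INTS9 was at -1.43, 3 were called lower and 3 higher of 13. INTS11, the endonuclease that pairs with INTS9, stood at 63.6, 60.8 and 63.9 CPM in knockdown and 97.4, 98.5 and 104 CPM in control libraries (-0.67, SE 0.08, edgeR adjusted p = 0.00046). INTS10 stood at 37, 39.2 and 36.7 CPM in knockdown and 69.2, 68.5 and 70.1 CPM in control libraries (-0.88, SE 0.08, edgeR adjusted p = 0.000158). In TFIIE the partner GTF2E1 was higher, with 39.3, 40.4 and 40.7 CPM in knockdown and 31.5, 28.4 and 32 CPM in control libraries (0.39, SE 0.09, edgeR adjusted p = 0.00916), while GTF2E2 was lower.

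The phosphatase families were split as well. The calcineurin catalytic paralogs changed by 0.31 for PPP3CA and -0.27 for PPP3CB (edgeR adjusted p = 0.0116 and 0.0359), beside -1.48 for PPP3CC. Of 6 listed PP2A genes, 2 were called lower and 1 higher. The list left out PPP2CB, the catalytic subunit gene just after the interval, which was called lower (-1.16, SE 0.16, edgeR adjusted p = 0.000845). The PP2A scaffold gene PPP2R1A stood at 73, 67.9 and 73.3 CPM in knockdown and 123, 131 and 139 CPM in control libraries (-0.88, SE 0.09, edgeR adjusted p = 0.000207). PPP2R2B, a paralog of PPP2R2A, had 58, 55 and 37 counts in knockdown and 0, 0 and 1 in control libraries, a ratio of 125 with a 95% exact counting interval from 22.2 to 4990. It passed the filter on low counts only through the knockdown libraries, so nothing is read from its higher call. The paralog PPP2R2C changed by -0.61 (edgeR adjusted p = 0.00173), and PPP2R2D was not called.

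Dynactin genes were called lower in 4 and higher in 0 of 7, and ESCRT-III genes lower in 2 and higher in 1 of 12. Cohesin and its regulators were called higher in 6 and lower in 0 of 9, with a median of 0.76, beside -0.46 for ESCO2. The cohesin subunit STAG2 rose to 284, 313 and 279 CPM in knockdown libraries, against 80.6, 46.8 and 47.5 CPM in control libraries (2.32, SE 0.22, edgeR adjusted p = 0.000158). ESCO1, the other cohesin acetyltransferase, stood at 30.5, 36.2 and 31.4 CPM in knockdown and 24.7, 10.9 and 7.85 CPM in control libraries (1.17, SE 0.37, edgeR adjusted p = 0.03), with control replicate 1 well above the other controls. Among lysyl oxidases, LOX changed by 1.24 and LOXL3 by -1.29 (edgeR adjusted p = 0.00464 and 0.00247), beside -0.38 for LOXL2.

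**Figure D5:**
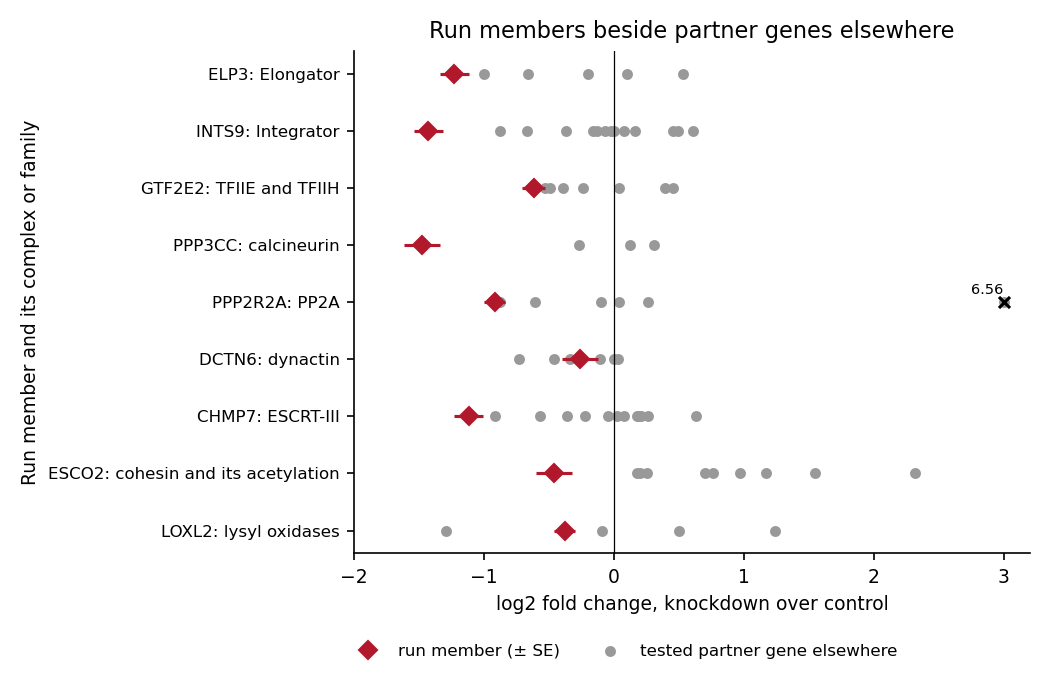
Log2 fold change, knockdown over control, of 9 members beside the tested genes elsewhere that were listed for the same complex or family. Members are red diamonds with standard errors, and the listed genes are grey points. The cross marks PPP2R2B, whose fitted value of 6.56 lies beyond the axis and rests on 1 control count. The partners lie on both sides of 0.

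Medians differed along the interval. The 12 tested members from PPP3CC to R3HCC1, in the first part of the interval, were called lower without exception, beside 25.1% of all tested genes. They had a median log2 fold change of -1.46 and a range from -1.93 to -0.85. Medians were -0.77 over the 4 from LOXL2 to STC1, -0.92 over the 8 from DOCK5 to DPYSL2 and -0.89 over the 7 from PTK2B to PBK. The 6 from SCARA5 to HMBOX1 had -1.33 and the 5 from SARAF to GTF2E2 had -0.62. These bounds were drawn after the values were seen. Across the 42 tested members, which share libraries and neighbourhoods and are not independent, log2 fold change had Pearson's r of 0.31 and Spearman's rank coefficient of 0.36 with start site. With log2 control level they were -0.30 and -0.14, beside -0.30 and -0.25 over all tested genes, and with log2 gene length they were -0.04 and -0.05.

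The tested members resembled other tested genes in length and were more abundant in controls. Their median gene length in the table was 4801 bases, beside 5524 over all tested genes, and their median level was 4.64 FPKM in knockdown and 10.3 FPKM in control libraries, beside 5.35 FPKM in knockdown and 4.81 FPKM in control libraries over all tested genes. After CLU the highest control levels were those of PBK, PNMA2 and DPYSL2. PBK stood at 47.3 FPKM in knockdown and 49.8 FPKM in control libraries, PNMA2 at 14.1 FPKM in knockdown and 34.2 FPKM in control libraries, and DPYSL2 at 16.9 FPKM in knockdown and 32 FPKM in control libraries. In knockdown libraries PBK stood above CLU, at 47.3 and 37.4 FPKM. Of the gene ontology terms that the authors' table attaches, looked over after the values were seen, apoptotic process covered 7 of the 42 tested members (16.7%, beside 4.45% of all tested genes) and endocytosis covered 5 (11.9%, beside 1.58%). The 5 were BIN3, DPYSL2, LOXL2, SCARA3 and SCARA5, and the term TRAIL binding covered 3 members of only 4 tested genes that carry it. These shares are descriptions and were not tested.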

How the data were processed

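RNA was sequenced from 6 PANC-1 libraries, grouped by sample title. Per the labels' protocols, TRIzol was used to extract total RNA and an NEBNext Ultra II kit to build the libraries. Sources used here do not give the aligner, the counter, the genome build or the strand setting. Read counts (whole numbers) and FPKM per gene were deposited by the authors, per the file headers, and the FPKM follow from the table's counts, lengths and totals. Coordinates are the table's. Of its 57 members, 45 share a start or end with GENCODE 29 (GRCh38). No column of another sample was present.

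Counts were filtered with filterByExpr, scaled with TMM and tested with edgeR 4.0.16 (quasi-likelihood, no covariate) in R 4.3.3 over 12292 genes, with Benjamini-Hochberg adjustment and a threshold of 0.05. The biological coefficient of variation was 14.2%. Levels are TMM-scaled CPM, and standard errors come from the F statistic. Exact counting intervals cover counting error only. The fit was tested on simulated data. Alternatives were other scalings, filters, tests (DESeq2 1.42.0, limma 3.58.1), a length trend (mgcv 1.9.3), the replicate block and left-out libraries.

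Members, gene lists, libraries doubted and the rule for named genes were chosen with earlier results of these data known. That rule takes role-group members with at least 10 CPM in controls, the 5 largest falls, members above 0, 3 genes at each side of each edge, and partners, with 4 called genes per list. Genes named for the ends of the longer stretch and of blocks, and ontology terms, were chosen after their values were seen. A few genes that the rule or the lists take are not reported here by name.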

Additional observations from a re-analysis of the deposited data

How the results depend on the processing

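The median log2 fold change of the tested members was -1.05 with a gene length trend removed, -0.94 with at least 1 CPM in 3 libraries, -0.93 with no filter, -0.89 with library totals alone, -0.87 by limma on log2(FPKM + 0.1) and -0.77 on log2(FPKM + 1), and it ran from -1.07 to -0.96 when each library was left out in turn. Members called lower numbered 33 to 35 under every alternative. Members called higher numbered 2 by DESeq2, library totals alone and both FPKM fits, 4 with control replicate 1 and knockdown replicate 2 both left out, and 1 to 2 with each library left out. The log2 fold change of PBK, not called, turned to 0.07 without those 2 libraries and was also above 0 with the length trend removed. The genes of the interval left out by name had medians of -0.87 and -0.62 on log2(FPKM + 0.1) and log2(FPKM + 1), and -1.11 with no filter. Chromosome 8 before the interval had -0.15 with library totals, -0.17 and -0.08 in the FPKM fits, 0.04, above 0, with no filter, and -0.34 to -0.12 with a library left out. Its short arm after the interval had -0.48 with the length trend removed, -0.26 with library totals, -0.26 and -0.21 in the FPKM fits, and -0.40 to -0.34 with a library left out. Its long arm had 0.26 with library totals, 0.25 on log2(FPKM + 0.1), 0.25 with no filter, and 0.14 to 0.22 with a library left out. Calls over all tested genes ran from 4748 to 6784 with a library left out, beside 6372 in the main fit. Partner genes called lower numbered 11 to 20 and higher 10 to 20 with a library left out, and higher 27 without those 2 libraries. TRAIL pathway genes called then were 2 lower and 8 higher. The median over all tested genes was 0.00 in the main fit and 0.09 with library totals. It was 0.08 on log2(FPKM + 0.1), 0.05 on log2(FPKM + 1) and 0.03 with no filter. The cause of these moves was not tested.

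Same-numbered libraries deviated from their group means with correlations of -0.359, -0.339 and 0.368, and not every library correlated best with its own number. The main fit therefore did not pair them. Deviations from a mean of 3 libraries are tied to each other, so these correlations cannot exclude a shared culture or batch. With the replicate block, 5444 genes were called in place of 6372, and 33 members lower and 1 higher, with ESCO2 and HMBOX1 not called. The replicate block gave log2 fold changes of -0.97 for the members' median and -4.84 for SHMT2.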
